A study of Mus musculus with 3 samples.

Results

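The MHC class I presentation pathway was read in mouse T cells through 10 genes picked by name out of 50600 in the deposited gene tables. They encode the classical heavy chains H2-K1 and H2-D1, the light chain B2m, the peptide transporter Tap1 and Tap2, tapasin (Tapbp), the trimming peptidase Erap1, the class I transactivator Nlrc5 and the non-classical heavy chains H2-T23 and H2-M3. All 10 had a row in every table. The rule of choice uses gene names and no measured value, but the members were chosen with earlier results of these data known. The cells were primary T cells of the C57BL/6NJ strain, sequenced in 3 libraries that make up a single group and are numbered replicates 2, 3 and 4 in the labels. No genetic change or agent is named for them, and age, stage and sex are given as unknown or not collected. The linked protocols are named for CD4+ T cell differentiation and poly(A) RNA libraries, although the assay is titled total RNA-seq. The names of the alignments carry Th0, activated and 0 h. Each library has its own biosample, but 1 donor identifier covers all 3, and p-values measure only how these libraries scatter.

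Class I molecules display peptides from inside the cell to CD8 T cells and to natural killer cell receptors. The proteasome cuts proteins into peptides, the TAP transporter carries them into the endoplasmic reticulum, peptidases such as ERAP1 trim them, and tapasin with its partner chaperones holds the heavy chain and β2-microglobulin ready until a well-fitting peptide binds. In lymphocytes the heavy chain, light chain and loading genes share promoter elements, the W/S, X1, X2 and Y boxes, through which NLRC5 acts, and many also carry elements for interferon and NF-κB signalling.

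The X1, X2 and Y boxes, and the elements for interferon and NF-κB, were sought in the promoter letters of the members. The W/S box was not searched. Promoters of 250 bases before to 50 after the start site were taken from RefSeq on GRCm38.p6, where 8 of the 10 genes matched 9 promoters. Tap2 and Nlrc5 did not match. For H2-D1 and Tapbp the whole promoter window lies inside the gene as counted, which begins further upstream (at 35262730 and 33915899 on chromosome 17). The X2 box core TGACG, read on both strands, was present for 5 of the 8 members and in 20.8% of all 32851 promoters in that table. The Y box CCAAT was present for 7 of the 8 and in 37.4% of all promoters, and the short X1 core AGNAAC for 4 of the 8 and in 48.1%, a share near the background. None of the X1 matches lay directly before an X2 core. In H2-K1, H2-D1, B2m and H2-M3 the X2 core was followed by 20 bases and then by the Y box in reverse (ATTGG), an arrangement present in 31 of the 32851 promoters (0.0944%). That spacing was noticed in the members first, so its share is only a description. It is shown because the 4 genes range from the top of the order of levels given below to near its bottom. The stretches lie at chr17:34000359-34000388 on the minus strand for H2-K1, and on the plus strand at chr17:35262993-35263022 for H2-D1, chr2:122147609-122147638 for B2m and chr17:37270188-37270217 for H2-M3. They run 5′ to 3′ with the X2 core and the reversed Y box in capitals.
H2-K1: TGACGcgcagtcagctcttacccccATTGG
H2-D1: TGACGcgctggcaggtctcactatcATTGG
B2m: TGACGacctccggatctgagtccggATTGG
H2-M3: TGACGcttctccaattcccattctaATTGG
The heavy chain stretches resemble each other more than that of B2m: H2-K1 and H2-D1 share 23 of the 30 bases, H2-D1 and H2-M3 share 19 and H2-K1 and H2-M3 share 17, whereas B2m shares between 12 and 15 with each of them.

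Upstream of that stretch the classical heavy chain genes carry a κB core, GGGNNTTCC, followed by an interferon-stimulated response element. The κB core was found for 2 of the 8 members, H2-K1 and H2-D1, and in 5.82% of all promoters. The response element was sought as GAAANNGAA, present for B2m, Erap1 and H2-T23 and in 8.56% of all promoters, and, after the promoters had been seen, as GAANNGAAA, present for H2-K1, H2-D1 and H2-M3 and in 7.52%. A match of letters is no proof of a bound site. The stretch lies at chr17:34000429-34000458 on the minus strand for H2-K1, chr17:35262923-35262952 on the plus strand for H2-D1 and chr2:122147538-122147567 on the plus strand for B2m, and is printed with the κB core and the response element in capitals.
H2-K1: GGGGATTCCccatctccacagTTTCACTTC
H2-D1: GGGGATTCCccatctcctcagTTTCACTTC
B2m: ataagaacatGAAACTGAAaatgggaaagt
H2-K1 and H2-D1 share 29 of these 30 bases, and B2m has the other form of the element. The Tap1 promoter, at chr17:34187460-34187489 on the plus strand, has an X2 core (capitals) with no Y box after it at that distance.
Tap1: cagagacaggTGACGacagagggtcctgcc

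The gene tables sum to between 28340521 counts (replicate 4) and 59698913 counts (replicate 3). Levels are in TPM, computed from the counts and each gene's summed exon length, so that genes can be compared per length. That length covers all annotated exons of a gene, and which of its transcripts were made was not tested. Detected means that no library was below 1 TPM. Checked against markers, the T cell label held: 9 of 9 T cell identity genes were detected, with a summed level between 12890 and 12940 TPM, and Cd4 averaged 1044 ± 24.6 TPM. Summed levels were between 70.8 and 116 TPM for 8 B cell markers, 15.1 and 15.9 TPM for 7 macrophage and monocyte markers (Cd14 and Fcgr1 at 0), 9.78 and 15.0 TPM for 5 NK cell markers, and 0.548 and 1.38 TPM for 6 dendritic cell markers (Xcr1 at 0). The 6 erythroid and platelet markers summed to between 1.20 and 5.35 TPM (Pf4 and Ppbp at 0). Other cells also make class I transcripts, and their part in the levels below was not tested. In bulk RNA, fewer cells of a type and less RNA per cell cannot be told apart. Replicate 2 stood apart by its sex-linked genes, with Xist at 151 TPM and Ddx3y at 0.248 TPM, against Xist at 0.221 and 0.399 TPM and Ddx3y at 80.0 and 72.3 TPM in replicates 3 and 4. Replicate 2 was therefore not from the same animal as the other libraries, whereas the labels do not say whether replicates 3 and 4 were from separate animals.

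Class I heavy and light chain transcripts were among the most abundant in these cells. H2-K1 (ENSMUSG00000061232.15, mm10 chromosome 17, 33996017 to 34000333, minus strand), a classical heavy chain that presents peptides to CD8 T cells, had 6199, 6051 and 6496 TPM in replicates 2, 3 and 4, a mean of 6249 ± 227 TPM (SD, n = 3) from 610666 counts. It ranked 7 among 21764 protein-coding genes by mean TPM. H2-D1 (ENSMUSG00000073411.11, chromosome 17, 35262730 to 35267499, plus strand), the other classical heavy chain, had 4043, 4039 and 4318 TPM, a mean of 4134 ± 160 TPM from 399537 counts, and ranked 14. Both heavy chains were highest in replicate 4. B2m (ENSMUSG00000060802.8, chromosome 2, 122147686 to 122153083, plus strand), the light chain of class I molecules, had 5425, 6076 and 5887 TPM, a mean of 5796 ± 335 TPM from 188791 counts, and ranked 11. B2m was lowest in replicate 2. The summed classical heavy chains were above the light chain in every library, with a ratio of 1.89, 1.66 and 1.84 (1.80 ± 0.121) and a log2 difference of 0.84 ± 0.10.

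The non-classical members were lower. H2-T23 (ENSMUSG00000067212.8, chromosome 17, 36029773 to 36032855, minus strand) encodes Qa-1, which shows leader peptides of other class I chains to CD94/NKG2 receptors. Its levels were 649, 599 and 619 TPM (622 ± 25.4), the highest in replicate 2. H2-M3 (ENSMUSG00000016206.6, chromosome 17, 37270220 to 37274484, plus strand) presents N-formylated peptides of bacterial and mitochondrial origin. Its levels were 136, 127 and 130 TPM (131 ± 4.88), from 7107 counts, the fewest of the members. H2-D1 exceeded H2-T23 by 2.73 ± 0.09 on the log2(TPM + 0.1) scale, the widest step between neighbours in the order of levels.

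The loading genes formed a narrow middle band. Tapbp (ENSMUSG00000024308.14, chromosome 17, 33915899 to 33929288, plus strand), the tapasin bridge between the heavy chain and TAP, had 512, 526 and 503 TPM (513 ± 11.6). Tap1 (ENSMUSG00000037321.17, chromosome 17, 34187553 to 34197225, plus strand) and Tap2 (ENSMUSG00000024339.12, chromosome 17, 34203527 to 34216321, plus strand) encode the paired subunits of the peptide transporter. Tap1 had 378, 370 and 380 TPM (376 ± 5.17). Tap2 had 371, 363 and 392 TPM (376 ± 15.1). The subunits could not be ordered: Tap1 was above Tap2 in replicates 2 and 3 and below it in replicate 4, the mean log2 difference was 0.00 ± 0.04, and the ratio of pooled counts per length was 1.01, with a 95% exact binomial interval of 0.997 to 1.02.

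The transactivator and the peptidase lay lower. Nlrc5 (ENSMUSG00000074151.13, chromosome 8, 94434356 to 94527272, plus strand) had 285, 276 and 294 TPM (285 ± 9.27), and ranked 505 among protein-coding genes. Ciita, its relative that switches on class II genes, had 1.98, 2.40 and 1.96 TPM, so Nlrc5 was 144, 115 and 150 times as high (136 ± 18.7). Erap1 (ENSMUSG00000021583.6, chromosome 13, 74639872 to 74691875, plus strand), which shortens peptides from their amino end inside the endoplasmic reticulum, had 127, 135 and 127 TPM (130 ± 4.44), the highest in replicate 3. Together the 10 genes held 1.81%, 1.86% and 1.91% of summed TPM in replicates 2, 3 and 4. Of the 10, 3 were among the 100 most abundant protein-coding genes and 7 among the 500 most abundant. The median over the members was 447 TPM, and over all detected protein-coding genes it was 33.4 TPM.

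**Figure D1:**
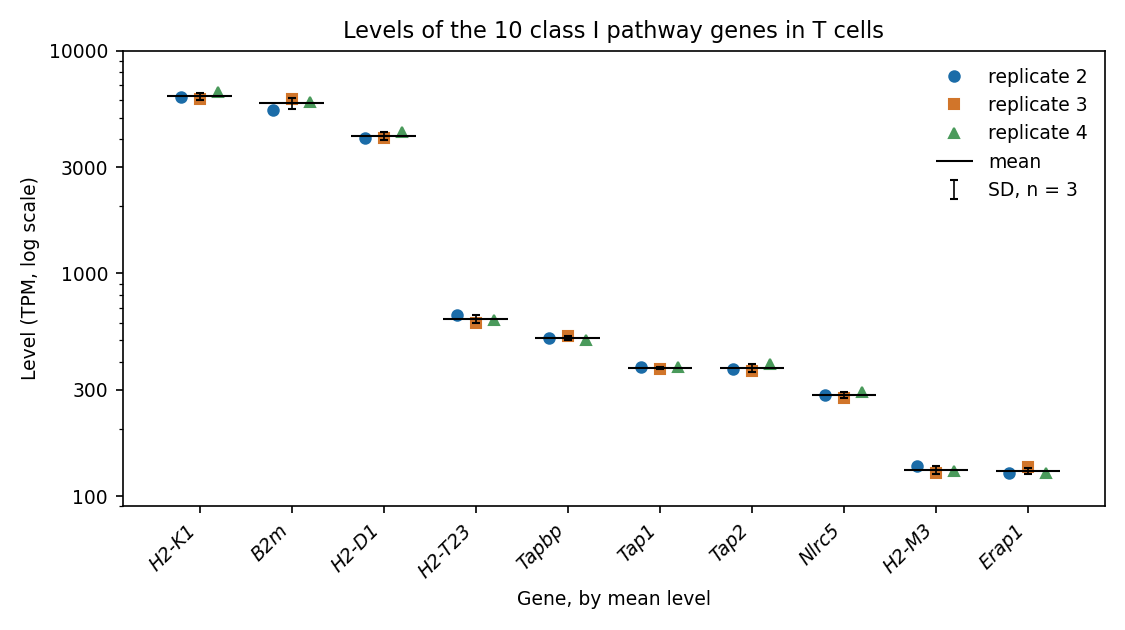
Level of each of the 10 genes in replicates 2, 3 and 4, in TPM on a log axis, with the mean as a line and the SD as a bar (n = 3). Points of a gene lie close together, from H2-K1 at 6249 TPM to Erap1 at 130 TPM, with a gap between H2-D1 and H2-T23.

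The order from top to bottom was H2-K1, B2m, H2-D1, H2-T23, Tapbp, Tap1, Tap2, Nlrc5, H2-M3 and Erap1. Of the 45 pairs, 42 had the same sign in all 3 libraries, and the 3 that did not were neighbours in this order. With 3 libraries the exact permutation test used, which flips signs and is two-sided, cannot give a p under 0.25, so no pair could pass a threshold of 0.05, and each of the 42 had p = 0.25 (0.268 after Benjamini-Hochberg adjustment over the 45). H2-K1 was above B2m in replicates 2 and 4 and just below it in replicate 3, with log2 differences of 0.19, -0.01 and 0.14 (exact permutation p = 0.5, adjusted 0.523). Counting error alone would have separated them, since the pooled ratio was 1.07 with an interval of 1.06 to 1.07; the libraries did not. H2-M3 and Erap1 changed places between libraries, with log2 differences of 0.10, -0.09 and 0.03 (exact permutation p = 0.75, adjusted 0.767). Other steps were small but kept their sign in 3 of 3 libraries: H2-T23 over Tapbp by 0.28 ± 0.08, Tapbp over Tap1 by 0.45 ± 0.05, Tap2 over Nlrc5 by 0.40 ± 0.02 and B2m over H2-D1 by 0.49 ± 0.09.

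**Figure D2:**
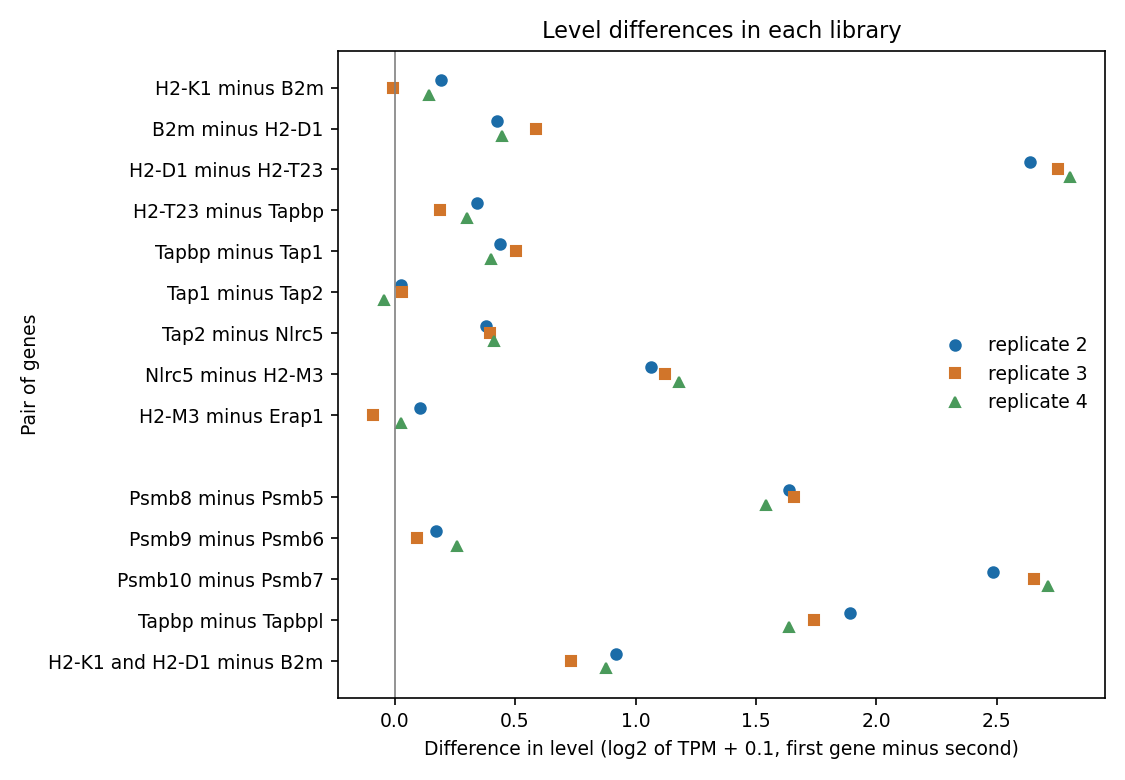
Difference in level for each pair of neighbours in the order of levels and for 5 pairs of related subunits, as log2 of TPM + 0.1 of the first gene minus the second, with 1 point per library. Only H2-K1 minus B2m, Tap1 minus Tap2 and H2-M3 minus Erap1 have points on both sides of 0.

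None of the 10 genes was called as varying between the libraries. Variation was tested by the goodness of fit of 1 common level per gene (edgeR, trended dispersion, Benjamini-Hochberg adjusted p of 0.05 or less) over 13498 genes, of which 72 were called, or 0.533%. All 10 members passed the count minimum, 0 of 10 were called, and 0 had an unadjusted p under 0.05. B2m came closest, with an adjusted p of 1.0 in edgeR (0.442 before adjustment). At a background of 0.533% a count of 0 in 10 is no result about the members, and it does not show that they were equal. Their coefficients of variation were between 1.37% for Tap1 and 5.78% for B2m. The median distance between the highest and lowest library was 0.12 on the log2 scale for the members and 0.19 for all genes tested, but 0.11 for the 6584 genes with a mean count over 1000, the range in which the members lie.

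**Figure D3:**
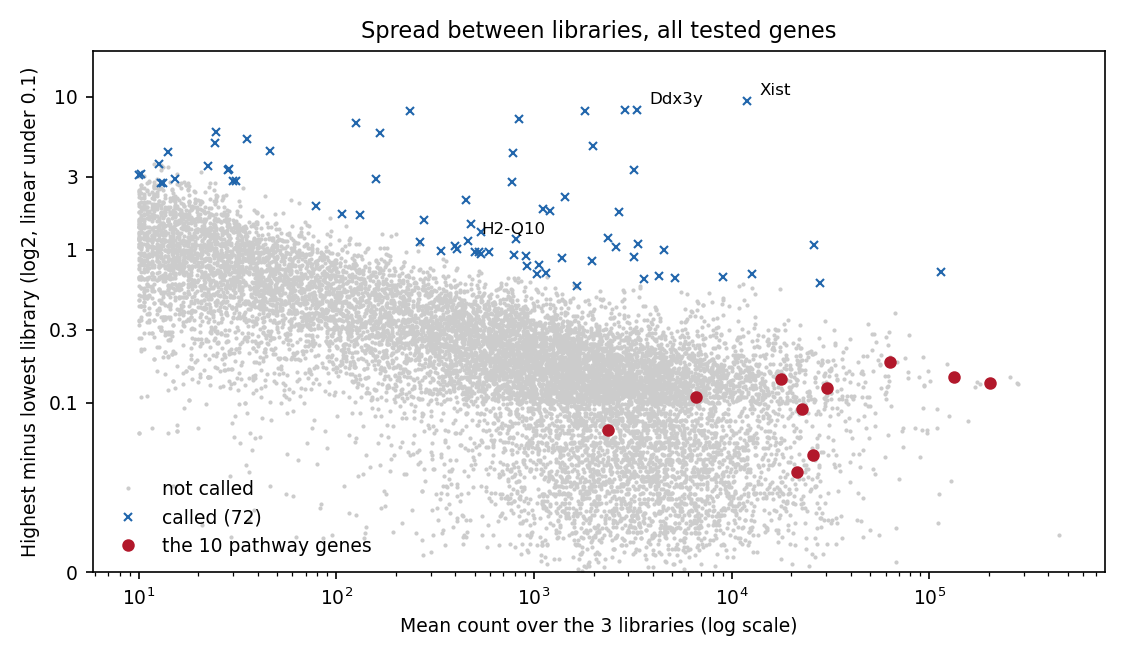
Distance between the highest and lowest library (log2, linear under 0.1) against mean count for the 13498 genes tested. The 10 pathway genes lie within the cloud of genes of like count, and none is among the 72 called, which include Xist, Ddx3y and H2-Q10.

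Beyond the members, a further set of class I heavy chains of the Q and T regions was well represented. Of 23 listed symbols 18 had a row, 8 were detected and 4 had no count. The Q region gene H2-Q4 had 1038, 983 and 1087 TPM, above H2-T23 in every library. H2-Q7, which encodes Qa-2, had 886, 801 and 876 TPM, and H2-Q6 518, 486 and 576 TPM. H2-T22, a ligand of some γδ T cell receptors, had 264, 250 and 253 TPM. Heavy chains other than H2-K1 and H2-D1 made up 28.1%, 26.9% and 27.2% of all listed heavy chain TPM. This share includes H2-Q5 (227 TPM) and H2-T10 (118 TPM), which are annotated as polymorphic pseudogenes. It leaves out the pseudogene H2-K2 (505 TPM), which was not listed. The other listed M region genes were at or near 0. H2-M1, H2-M5, H2-M9 and H2-M10.1 had 0 counts. Their approximate upper limits were 0.0751, 0.0295, 0.0550 and 0.0570 TPM. Each limit was set at 3 counts over the 3 libraries together and covers counting error only.

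Of the other listed heavy chains 1 of 9 tested was called, against 72 of 13498 genes (0.533%) in all. This was H2-Q10, a Q region gene known for a secreted class I product of the liver. It had 5.89, 8.61 and 12.6 TPM in replicates 2, 3 and 4, from 337, 623 and 437 counts, a log2 distance of 1.15 (edgeR goodness of fit, adjusted p = 0.00128). The highest value was in replicate 4 and the lowest in replicate 2. The call rested on those libraries, with an adjusted p (edgeR) of 0.453 without replicate 2, 0.999 without replicate 4 and 0.00557 without replicate 3. With a dispersion per gene the adjusted p was 1.0 (edgeR), but no gene at all was called in that setting. It therefore says nothing particular to H2-Q10. Of its 100-base transcript windows, 8.01% were also found in other genes, most of them in H2-Q7 at a mean of 854 TPM. H2-K1, at a mean of 6249 TPM, shared 38 windows of that length with H2-Q10. The part of reads from these genes in the H2-Q10 values was not tested.

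**Figure D4:**
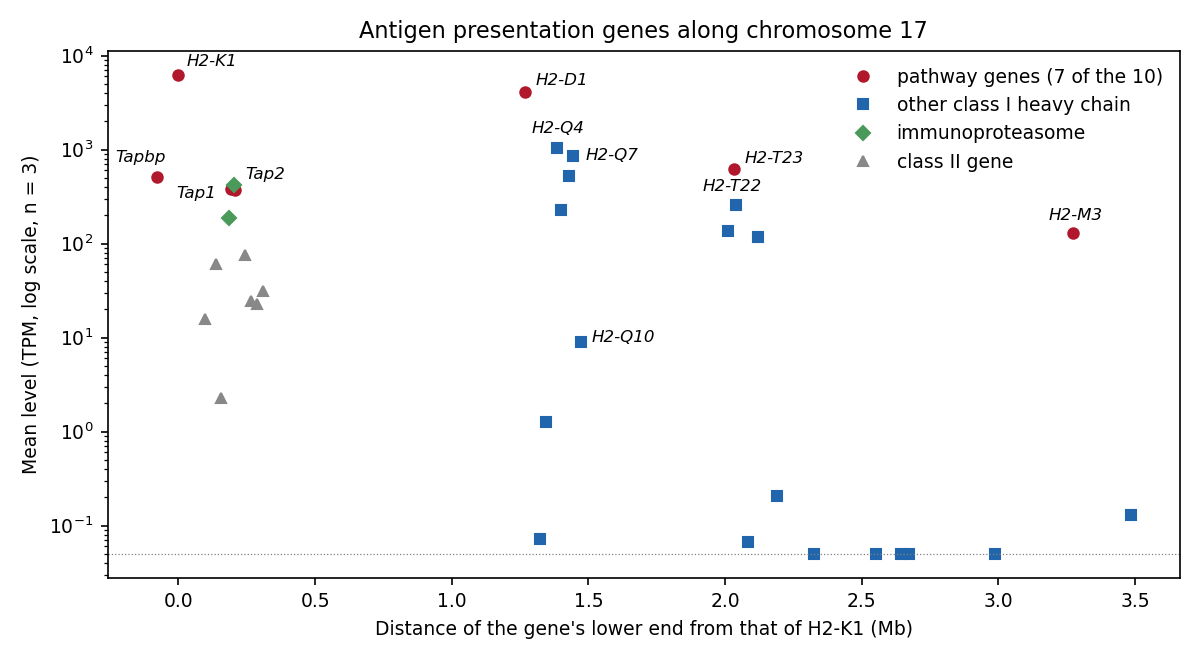
Mean level (TPM, log scale, n = 3) of antigen presentation genes against the distance of their lower end from that of H2-K1 on chromosome 17, in Mb. Values under 0.05 TPM are drawn on the dotted line at 0.05. Of the 10 pathway genes 7 lie here, Tap1 and Tap2 beside the immunoproteasome genes Psmb9 and Psmb8, and class II genes between H2-K1 and H2-D1 stand lower than all of them.

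Of the members 7 lie on chromosome 17, within the MHC, and 3 elsewhere. The similarity of class I genes limits how fully their reads can be counted, because no option for reads with several positions appears in the file headers. Over transcripts of GENCODE M21, 3.59% of the distinct 100-base windows of H2-D1, 3.15% of those of H2-T23 and 0.957% of those of H2-K1 occurred in a gene elsewhere. The value was 0.0775% for Tapbp and 0 for the other 6. Within the coding part alone, examined after those shares were seen, it was 9.42% for H2-D1, 6.28% for H2-T23 and 0 for H2-K1, and with windows of 50 bases 24.2% for H2-D1, 29.6% for H2-T23 and 12.9% for H2-K1. H2-K1 and H2-D1 were identical at 988 of 1074 aligned coding bases (92.0%), and their longest shared run was 91 bases. H2-D1 and H2-T23 were identical at 81.8% but shared a longer run, 145 bases at coding positions 663 to 807 of H2-D1, in which a 100-base read fits both genes. It is shown as the longest coding run shared by a pair of the 4 heavy chains among the members.
H2-D1 and H2-T23: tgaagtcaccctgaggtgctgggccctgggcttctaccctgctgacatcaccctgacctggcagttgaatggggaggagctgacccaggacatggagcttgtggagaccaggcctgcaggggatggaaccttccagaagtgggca
Levels of H2-D1, H2-T23 and, to the extent that shorter stretches decide where a read is placed, H2-K1 may therefore be understated. The shares were larger for H2-Q5, H2-Q6 and H2-Q7, between 12.0% and 14.0%. A read pair spans more than 1 window, so these shares are not shares of lost reads. No exon of a member overlapped an exon of another gene on the same strand in the deposited tables. Counting was by strand, so the exons on the opposite strand, over 726 of the 3296 exon bases of Tapbp and 698 of the 3781 of Tap2, do not share their reads.

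**Figure D5:**
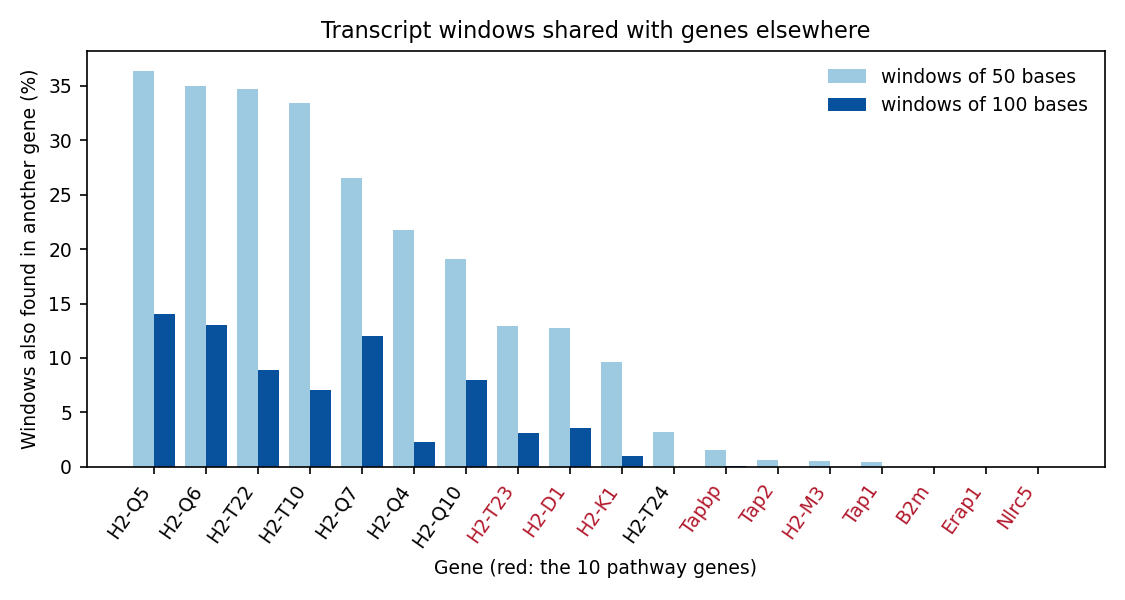
Share of the distinct transcript windows of each detected class I heavy chain and each of the 10 pathway genes (names in red) that also occur in a gene elsewhere, for windows of 50 and of 100 bases. At 100 bases H2-Q5, H2-Q6 and H2-Q7 reach 12.0% or more, and no pathway gene exceeds 3.59%.

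The genes that cut and deliver peptides were present throughout. All 8 immunoproteasome and activator genes were detected and none was called as varying. With 0.533% of all genes called, that is no result about them. Psmb8, an interferon-inducible catalytic subunit, had 409, 429 and 409 TPM and exceeded Psmb5, the constitutive subunit it replaces, by a log2 difference of 1.61 ± 0.06. Psmb10 averaged 319 ± 18.3 TPM and exceeded its counterpart Psmb7 by 2.62 ± 0.12. Psmb9 averaged 186 ± 9.39 TPM and exceeded Psmb6 by only 0.18 ± 0.08. The activator subunits Psme1 and Psme2 averaged 389 ± 13.4 and 355 ± 18.6 TPM. Each of these differences, and that of tapasin over its relative Tapbpl (1.76 ± 0.13, with Tapbpl at 152 ± 12.5 TPM), pointed the same way in every library (exact permutation p = 0.25, the smallest possible). These sizes are per length: from counts without length correction they were 3.26 for Psmb8, 1.61 for Psmb10 and 1.14 for Psmb9 over their counterparts. The 8 listed peptidases other than Erap1 were all detected, led by Lnpep, which trims peptides in endosomes, at 163 ± 4.47 TPM. Next were Nrd1 at 113 ± 1.13 TPM, Tpp2 at 49.7 ± 1.04 TPM and Npepps at 45.5 ± 1.34 TPM.

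Chaperones and editors of the loading complex lay between 63.3 TPM (Uggt1) and 452 TPM (Calr). All 9 listed genes were detected and none was called as varying, again no result at a background of 0.533%. Calr, the calreticulin that holds the glycosylated heavy chain, averaged 452 ± 17.3 TPM. The glucosidase subunit Ganab averaged 341 ± 6.88 TPM, and Pdia3, the disulfide isomerase bound to tapasin, 329 ± 3.83 TPM. Hspa5 averaged 250 ± 7.29 TPM and Canx, which binds the free heavy chain, 163 ± 1.98 TPM. For exit and turnover of class I, 9 of 10 genes were detected, with the cargo receptor Bcap31 highest at 266 ± 1.66 TPM, Ube2j1 at 133 ± 2.44 TPM and Derl1 at 127 ± 3.36 TPM. March4 had 0 counts.

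The factors known to act on class I promoters were all present, and none was called as varying, again no result at a background of 0.533%. Of 13 transcription genes, Irf1, an interferon-induced activator, was highest at 311 ± 13.4 TPM. The NF-κB genes Rela and Nfkb1 averaged 242 ± 6.58 and 113 ± 8.57 TPM, and Atf1 71.2 ± 11.1 TPM. The X box factors Rfx5, Rfxank and Rfxap averaged 23.6 ± 0.816, 40.0 ± 3.59 and 32.6 ± 1.94 TPM, and the Y box factor Nfya 61.3 ± 0.657 TPM. All 10 interferon input genes were detected: the kinase Jak1 at 671 ± 47.9 TPM, the transcription factor gene Irf9 at 133 ± 8.22 TPM, and the receptor chain Ifnar1 at 112 ± 4.05 TPM.

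Few receptors and relatives of class I were seen. Of 13 class I receptor genes 3 were detected. The CD8 chain gene Cd8b1 had 36.5, 33.9 and 30.5 TPM, whereas Cd8a had 0.334, 0.578 and 0.690 TPM. Klrd1, the CD94 subunit of the receptor for Qa-1, had 29.4, 30.3 and 28.5 TPM, while its partner Klrc1 had 6 counts over all libraries. Cd160 averaged 1.59 ± 0.362 TPM, and Kir3dl1 had 0 counts. Of 12 class I-like molecules 5 were detected, led by the lipid-presenting Cd1d1 at 54.0 ± 4.70 TPM and the neonatal Fc receptor gene Fcgrt at 13.8 ± 2.70 TPM, then Ulbp1 at 9.44 ± 0.770 TPM and Mr1 at 8.84 ± 0.502 TPM.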

How the data were processed

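Each deposited table gives whole, unnormalized counts of sequenced pairs for every gene. The authors made them with featureCounts 1.4.6-p4 on mm10, per the file headers, summing exons by gene of GENCODE vM13, with both ends aligned and strand respected. No option for reads with several positions appears there. How the reads were aligned and filtered before that is not stated. The tables' exon lengths were used with the counts to compute TPM. Symbols were matched by Ensembl identifier (50376 of 50600), with biotypes and transcripts from GENCODE M21 on the same build.

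Variation was tested in edgeR 4.0.16 (R 4.3.3): goodness of fit of an intercept-only model, TMM scaling, trended dispersion, mean count of 10 or more. The test was also run on counts simulated with the same trended dispersion. That check cannot cover genes whose own dispersion differs from the trend. Level differences used log2(TPM + 0.1) and exact sign-flip tests, and pooled ratios have 95% exact binomial intervals, covering counting error only. Python 3.11.15, scipy 1.17.1 and Biopython 1.88 were used. The members and lists were chosen with earlier results of these data known. Named genes were all members, the top 4 of each list by mean TPM, genes at 0 or below 1 TPM as needed, called genes and subunit pairs. Xist, Ddx3y, H2-K2, H2-T-ps, H2-Q5, H2-T10, H2-Ab1, H2-DMb1, Igkc, Ebf1, Blk, Canx, Ciita, Rfx5, Rfxank, Rfxap and Nfya fall outside that rule and were picked after their values were seen. The closing section gives the alternatives, among them DESeq2 1.42.0 size factors. Coding-only windows and the second response element pattern were added after the data were seen. Uggt1 was named as the lowest of its list. Some genes that the rule names are not reported here. Protein identity was not analysed here.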

Additional observations from a re-analysis of the deposited data

How the results depend on the processing

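All 10 members stayed uncalled under each alternative of the variation test. That is no result about them, since only a small share of all genes was called in any setting. With a dispersion per gene no gene at all was called, so that setting says nothing about the members. The number of all genes called was 72 with DESeq2 size factors, 312 with a common dispersion, 0 with a dispersion per gene (edgeR), and between 35 and 46 with 1 replicate left out. Without length correction 8 of the 45 level differences changed sign (log2): B2m with H2-D1 (-1.10), H2-T23 with Tap1 (-0.20) and Nlrc5 (-0.43), Tapbp with Tap1 (-0.29) and Nlrc5 (-0.52), Tap1 with Nlrc5 (-0.23), Tap2 with Nlrc5 (-0.77), and H2-M3 with Erap1 (-1.47), so the order of these genes holds only per length. The summed classical heavy chains exceeded B2m by 2.44 without length correction, against 0.84 with it, and the 5 subunit differences kept their sign. With 1 replicate left out, Tap1 with Tap2 ranged from -0.009 to 0.028 and H2-M3 with Erap1 from -0.030 to 0.066, and no other pair changed sign. Over protein-coding genes only, every level was 1.08 times as high (H2-K1 6746, B2m 6257, H2-D1 4463, H2-T23 672, Tapbp 554, Tap1 406, Tap2 405, Nlrc5 308, H2-M3 142 and Erap1 140 TPM). Over genes of 200 bases or more it was 1.03 times (Tapbp 531, Tap1 389, Nlrc5 295 and Erap1 134 TPM). With 50-base windows the shared share was 9.63% for H2-K1, 12.8% for H2-D1, 12.9% for H2-T23, 1.54% for Tapbp, 0.442% for Tap1, 0.655% for Tap2 and 0.576% for H2-M3. No pairing of samples between groups was possible because there is 1 group. A DESeq2 test was not run, since it has none for 1 group.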

Other observations

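The 8 listed class II genes were all detected, with summed levels of 356, 390 and 304 TPM in replicates 2, 3 and 4. The invariant chain Cd74 had 120, 138 and 92.8 TPM, and the β chain genes H2-Ab1 22.6, 32.0 and 19.2 TPM and H2-Eb1 26.3, 40.6 and 25.8 TPM. All 3 were highest in replicate 3 and lowest in replicate 4, the order of the summed B cell markers (96.6, 116 and 70.8 TPM). Not all genes of either list kept that order. H2-DMb1 had 1.585, 1.658 and 3.632 TPM, the highest in replicate 4. Igkc alone held 50.1, 64.9 and 35.4 TPM of the B cell sum, and Ebf1 and Blk were highest in replicate 2. The part of B cells in the class II values was not tested. None of Cd74, H2-Ab1 and H2-Eb1 was called over all libraries, with adjusted p-values (edgeR goodness of fit) of 0.526, 0.370 and 0.373. Of all genes tested 0.533% were called. Without replicate 2, Cd74 was called, with an adjusted p of 0.0275 (edgeR), and without replicate 3 or 4 the adjusted p was 1.0. Of the class II accessory genes, which modulate peptide exchange on class II, H2-DMa had 61.2, 62.2 and 60.5 TPM and H2-Ob 83.4, 73.5 and 70.4 TPM, and H2-Ob was highest in replicate 2.

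H2-K2, annotated as a pseudogene of the K region, had 507, 491 and 517 TPM (505 ± 13.1), a level close to that of Tapbp, from 19901 counts. Of its 100-base windows 1.60% were found in other genes. H2-T-ps, a pseudogene of the T region, had 70.0, 73.3 and 66.5 TPM. Both were picked after their values were seen.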
